A study of Mus musculus with 8 samples.

Results

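The miR-30 family was examined in mouse kidney on Agilent miRNA arrays, on which Cy3-labelled RNA binds short probes complementary to mature miRNAs. Its members are the 10 array entries named mmu-miR-30a-5p, mmu-miR-30b-5p, mmu-miR-30c-5p, mmu-miR-30d-5p and mmu-miR-30e-5p (the 5p arms) and mmu-miR-30a-3p, mmu-miR-30b-3p, mmu-miR-30c-1-3p, mmu-miR-30c-2-3p and mmu-miR-30e-3p (the 3p arms), out of 1881 miRNA entries, with the mouse prefix left out from here on. They were picked by name, with earlier results of these data known, and all 10 were above background on all 8 arrays. The LPS group consisted of 4 arrays (replicates 6, 10, 11 and 12) of kidneys from mice given lipopolysaccharide, a component of the bacterial outer membrane, by the intraperitoneal route at 10 µg per g of body weight, which is used as a model of septic acute kidney injury. The sham group consisted of 4 arrays (replicates 5, 6, 7 and 8) of kidneys from mice that received saline instead. Kidneys were taken after 24 h in both groups, and neither strain, sex nor age is stated in the labels. Samples carry a number but no statement that they are separate mice, so the p-values reflect the spread among these samples alone, which may be technical.

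A miRNA gene is transcribed as a hairpin, and either side of its stem can give a mature strand of about the length of a small interfering RNA. In the miR-30 family the 5p strand is the usual guide that is loaded into Argonaute, and the 3p strand is the usual passenger, which can also be loaded. Mature miRNAs repress mRNAs that pair with their seed, and the 5p strands of the family share their seed. The family is known as abundant in kidney tubule epithelium and podocytes, and in podocytes it is known for limiting injury by restraining Notch and calcineurin signalling. The hairpin genes lie in pairs, miR-30a with miR-30c-2, miR-30b with miR-30d, and miR-30c-1 with miR-30e.

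Mature sequences from RefSeq (GRCm38.p6) matched 7 of the 10 members, and they are printed because the comparisons of arms and cluster partners turn on which strand and which hairpin a probe reads. Capitals mark the seed, bases 2 to 8 from the 5′ end, and the 3 seeds define 3 groups. The 5p arms miR-30a-5p, miR-30c-5p and miR-30e-5p shared 1 seed.
miR-30a-5p: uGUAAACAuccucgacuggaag
miR-30c-5p: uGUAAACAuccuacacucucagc
miR-30e-5p: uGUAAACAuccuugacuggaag
The 3p arms formed a group of miR-30a-3p with miR-30e-3p and another of miR-30c-1-3p with miR-30c-2-3p.
miR-30a-3p: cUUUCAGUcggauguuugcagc
miR-30e-3p: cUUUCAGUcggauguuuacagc
miR-30c-1-3p: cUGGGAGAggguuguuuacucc
miR-30c-2-3p: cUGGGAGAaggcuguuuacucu
Counted from the 5′ end, miR-30e-5p differed from miR-30a-5p by C13U, miR-30e-3p differed from miR-30a-3p by G18A, and miR-30c-2-3p differed from miR-30c-1-3p by G9A, U12C and C22U. The probes of miR-30a-5p and miR-30e-5p, and those of miR-30a-3p and miR-30e-3p, therefore differed from the other member's sequence by 1 mismatch. Binding of one by the other's probes cannot be told apart from its own signal in these files. No sequence was at hand for miR-30b-5p, miR-30b-3p and miR-30d-5p, so binding between their probes and other members was not checked.

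Both copies of miR-30c give the same 5p strand, so the array has 1 entry for it, whereas their 3p strands differ and have an entry each. The 2 hairpins are shown for that reason, with the mature strands in capitals.
Mir30c-1: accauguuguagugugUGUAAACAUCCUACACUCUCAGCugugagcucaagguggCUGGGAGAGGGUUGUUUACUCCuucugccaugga
Mir30c-2: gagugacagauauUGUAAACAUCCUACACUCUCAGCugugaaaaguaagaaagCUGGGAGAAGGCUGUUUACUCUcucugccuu
In GRCm38.p6 Mir30c-1 lies at chr4:120769534-120769622 on the minus strand, 2983 bases from Mir30e at chr4:120772606-120772697 on the same strand. Both overlap the span of Nfyc, which encodes a subunit of the transcription factor NF-Y, and Mir30e also overlaps Mir30f. Mir30a lies at chr1:23272269-23272339 on the plus strand, 19361 bases from Mir30c-2 at chr1:23291701-23291784, and neither overlaps another gene of the RefSeq table. That table gives gene spans only, so whether Mir30c-1 and Mir30e are intronic is not given here.

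Each array held 56430 non-control spots, of which 15.8% to 17.5% were well above background and 0 were saturated, and 336 to 375 miRNAs were above background per array. All 8 arrays lay on 1 slide with the sham arrays in row 1 and the LPS arrays in row 2, and the row therefore cannot be told apart from the group. The 5 markers fixed for kidney tubule were all above background. The liver marker miR-122-5p was above background on no array, and of 4 striated muscle markers 2 were above background on none.

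Of the 10 members, 4 fell and 1 rose in LPS kidneys. The 4 that fell were miR-30c-5p, miR-30e-5p, miR-30c-1-3p and miR-30e-3p, and the 1 that rose was miR-30b-3p. These 5 of 10 passed limma's test at a Benjamini-Hochberg adjusted p under 0.05, where 40.2% of the 338 miRNAs tested passed (25.4% lower and 14.8% higher in LPS). Under this setting the share of members that changed was near that of the array as a whole. The array's share was lowest, at 25.1% without sham replicate 6, 26.0% without LPS replicate 12 and 23.7% with slide column as a block, while 5 of the 10 members passed in each of these fits. It was 45.0% without LPS replicate 10, 42.6% after quantile normalization and 55.0% under spike-in scaling, where 6, 7 and 8 members passed. The 5 members named above had LPS and sham arrays that did not overlap, as did 37.0% of all miRNAs tested. The median LPS minus sham difference was -0.14 on the log2 scale over the 10 members and -0.08 over all 338, and 8 of the 10 members had a difference below 0. The median was -0.15 over the 5p arms, which ran from -0.29 to 0.04, and -0.14 over the 3p arms, which ran from -0.88 to 0.29. The arrays are of whole kidney, in which fewer cells of a type and less miRNA per cell cannot be told apart.

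The scaling between arrays moved these counts. Among all miRNAs tested, 50 were higher and 86 lower under the 75th percentile scaling used here, 55 and 53 with that percentile taken over all probes, 57 and 49 without scaling, 65 and 66 with cyclic loess, and 34 and 152 when arrays were scaled on the labelling spike-in probes. The spike-in scaling moved the median difference of all 338 miRNAs from -0.08 to -0.23, and 8 members then passed, all of them lower. Without scaling 3 members passed, and after quantile normalization 7 passed, of which 6 were lower.

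**Figure D1:**
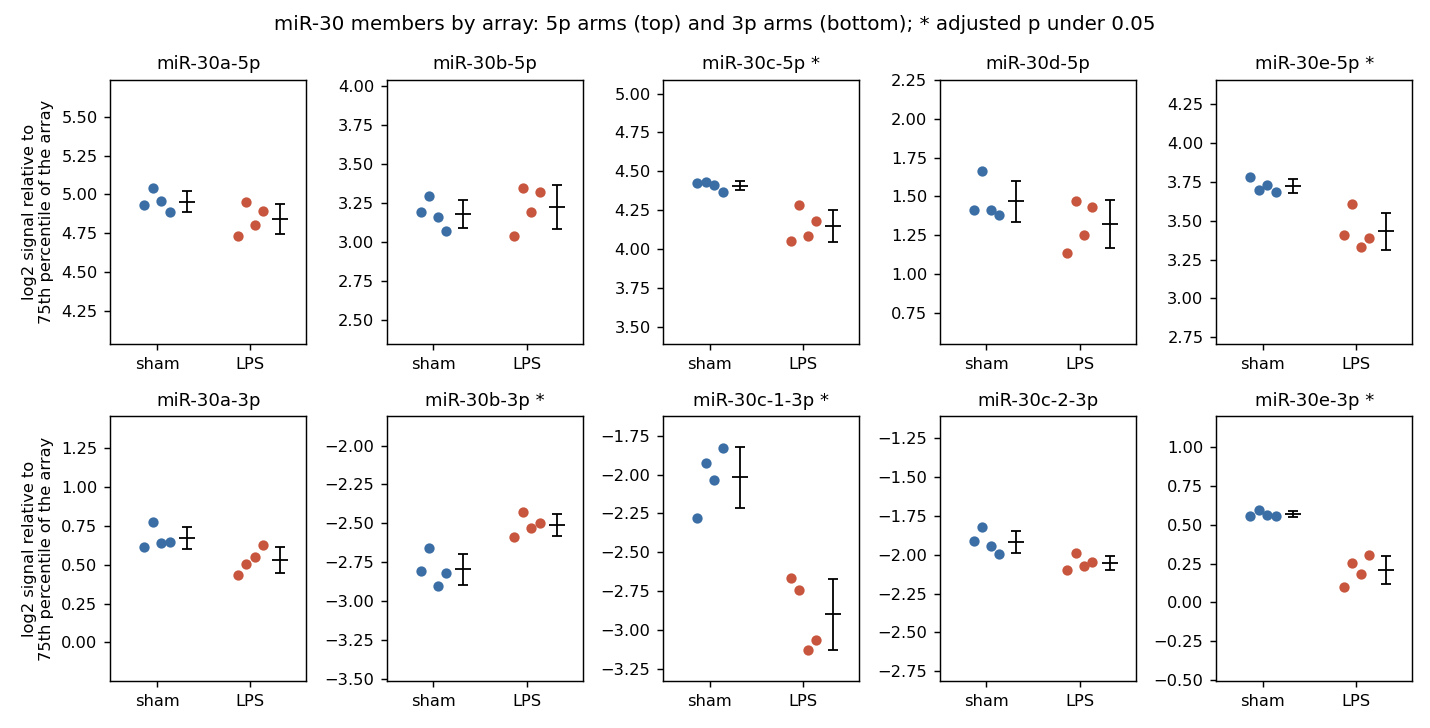
The plot of levels by array gives, for each member, the log2 signal relative to each array's 75th percentile (vertical axis) for 4 sham arrays (blue) and 4 LPS arrays (red), with the mean and 1 SD as black bars, 5p arms above and 3p arms below. Every panel spans the same number of log2 units around its own member, and the panels with a star are the 5 members with an adjusted p under 0.05, whose groups do not overlap.

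Among the 5p arms, the guide strands, 2 of 5 fell. For miR-30e-5p, the guide strand of the miR-30e hairpin, the log2 signal, given here and below relative to each array's 75th percentile, was 3.78, 3.70, 3.73 and 3.68 on sham replicates 5 to 8 and 3.41, 3.61, 3.33 and 3.39 on LPS replicates 6, 10, 11 and 12. All 4 LPS arrays lay below every sham array, and LPS replicate 10 came closest to the sham range. The means were 3.72 ± 0.04 (SD, n = 4) and 3.43 ± 0.12 (SD, n = 4), a difference of -0.29 ± 0.07 (SE), or 1.22-fold lower in LPS (limma, adjusted p = 0.0124). The call was lost without scaling between arrays (adjusted p = 0.0921), where over the 28 alternatives the adjusted p ran from 0.00206 to 0.0921.

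The miR-30c-5p strand, which both miR-30c hairpins produce, stood at 4.42, 4.43, 4.41 and 4.37 on the sham arrays and at 4.05, 4.28, 4.08 and 4.18 on the LPS arrays. The sham arrays were tightly grouped, and every LPS array lay below them. Its mean went from 4.41 ± 0.03 (SD, n = 4) to 4.15 ± 0.10 (SD, n = 4), a difference of -0.26 ± 0.06 (SE), or 1.20-fold lower in LPS (limma, adjusted p = 0.0134). The call was lost with the percentile over all probes, without scaling and in a fit to the authors' deposited table, and over the 28 alternatives the adjusted p ran from 0.00209 to 0.0992.

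The other 5p arms overlapped between groups and did not pass. The miR-30a-5p strand, the guide of a hairpin that also gives a readily measured 3p strand, had values of 4.93, 5.04, 4.96 and 4.89 in sham and 4.73, 4.95, 4.80 and 4.89 in LPS. Its difference was -0.11 ± 0.07 (SE), with a 95% interval from -0.26 to 0.04 (limma, adjusted p = 0.204). LPS replicates 10 and 12 lay within the sham range and replicate 6 lay lowest. It passed as lower after quantile normalization (-0.25), under spike-in scaling (-0.26) and with only the shortest probe (-0.20), and over the 28 alternatives its adjusted p ran from 0.000176 to 0.768. The miR-30b-5p strand had values of 3.19, 3.30, 3.16 and 3.07 in sham and 3.04, 3.35, 3.19 and 3.32 in LPS, so the LPS arrays spanned the sham range on both sides. Its difference of 0.04 ± 0.08 (SE) had an interval from -0.14 to 0.23 (limma, adjusted p = 0.694), and its sign turned to -0.10 under spike-in scaling and to -0.02 with only the shortest probe of each miRNA. The miR-30d-5p strand had values of 1.41, 1.67, 1.41 and 1.38 in sham and 1.14, 1.47, 1.25 and 1.43 in LPS. Sham replicate 6 stood above the rest, and the groups overlapped, with a difference of -0.15 ± 0.10 (SE) and an interval from -0.37 to 0.08 (limma, adjusted p = 0.258). The difference was -0.080 without sham replicate 6 and -0.083 without LPS replicate 6. It passed under spike-in scaling alone (-0.29), with the adjusted p over the 28 alternatives from 0.0146 to 0.643.

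Among the 3p arms, the usual passenger strands, 2 of 5 fell and 1 rose. The widest difference was that of miR-30c-1-3p, the passenger strand of the miR-30c-1 hairpin. Its log2 signal was -2.28, -1.93, -2.04 and -1.83 on the sham arrays and -2.66, -2.74, -3.12 and -3.06 on the LPS arrays. The groups were separated by a gap, with sham replicate 5 nearest to the LPS arrays. The mean went from -2.02 ± 0.19 (SD, n = 4) to -2.90 ± 0.23 (SD, n = 4), a difference of -0.88 ± 0.13 (SE), or 1.84-fold lower in LPS (limma, adjusted p = 0.00166). It passed under all 28 alternatives, with an adjusted p of at most 0.0311, but its size ranged from -0.26 under normexp background correction and -0.40 with the mean of log values over probes to -1.46 with the scanner software's total signal. The normexp setting adds an offset of 50 to each spot, and the brightest probe of this strand read 33.2 to 70.1. The highest adjusted p came from the shortest probe alone, which was above background on 2 sham arrays and 0 LPS arrays, so that setting adds little.

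The miR-30e-3p strand, from the neighbouring hairpin, stood at 0.56, 0.60, 0.56 and 0.56 on the sham arrays and at 0.10, 0.25, 0.19 and 0.30 on the LPS arrays. Sham arrays were nearly level, and all LPS arrays lay below them. The means of 0.57 ± 0.02 (SD, n = 4) and 0.21 ± 0.09 (SD, n = 4) gave a difference of -0.36 ± 0.06 (SE), or 1.28-fold lower in LPS (limma, adjusted p = 0.00187). It passed under all 28 alternatives, with differences from -0.50 to -0.28 and an adjusted p of at most 0.0156.

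The miR-30b-3p strand, the passenger of the miR-30b hairpin, rose. It was at -2.81, -2.66, -2.90 and -2.82 on the sham arrays and at -2.59, -2.42, -2.53 and -2.50 on the LPS arrays, with every LPS array above every sham array. The means were -2.80 ± 0.10 (SD, n = 4) and -2.51 ± 0.07 (SD, n = 4), a difference of 0.29 ± 0.07 (SE), or 1.22-fold higher in LPS (limma, adjusted p = 0.0123). The call was lost in 5 of 28 alternatives, which were spike-in scaling (0.14), normexp background correction (0.03), the brightest or the longest probe alone (0.19 in both) and the shortest probe alone (0.15), and over all alternatives the adjusted p ran from 0.00112 to 0.707. That shortest probe was above background on 0 of the 8 arrays, so its value says nothing about this strand.

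The remaining 3p arms overlapped between groups. For miR-30a-3p the sham values were 0.62, 0.77, 0.64 and 0.65 and the LPS values 0.43, 0.51, 0.55 and 0.63, and only LPS replicate 12 reached the sham range. Its difference was -0.14 ± 0.06 (SE), with an interval from -0.28 to 0.00 (limma, adjusted p = 0.105). It passed as lower after quantile normalization (-0.19), under spike-in scaling (-0.29) and with only the shortest probe (-0.20), and over the 28 alternatives its adjusted p ran from 0.00630 to 0.496. For miR-30c-2-3p the sham values were -1.91, -1.82, -1.94 and -1.99 and the LPS values -2.10, -1.99, -2.07 and -2.05, with LPS replicate 10 level with sham replicate 8. The difference was -0.14 ± 0.06 (SE), with an interval from -0.26 to -0.01, and did not pass after adjustment (limma, adjusted p = 0.0852). It passed as lower in 5 of the 28 alternatives. These were spike-in scaling (-0.28), only the shortest probe (-0.27), the mean of log values over probes (-0.17), a higher floor (-0.14) and leaving out LPS replicate 10 (-0.16). Over all 28 its adjusted p ran from 0.00959 to 0.540. So of the passenger strands of the 2 miR-30c hairpins, the c-1 strand fell and the c-2 strand did not pass in the main fit. The difference between them was not tested.

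**Figure D2:**
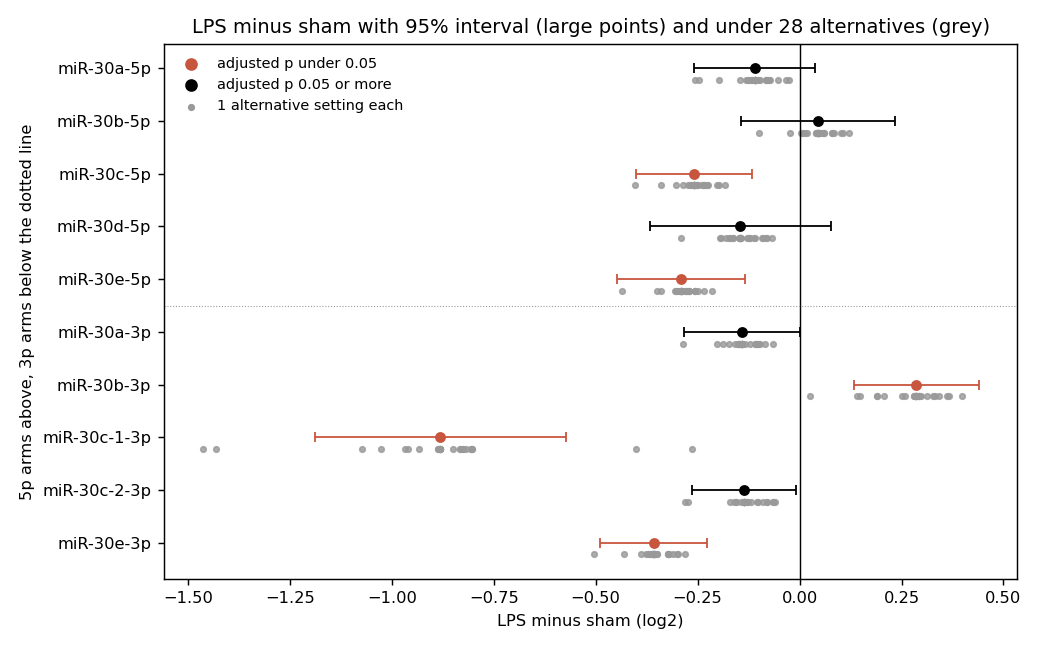
The plot of differences gives, for each member (vertical axis), the LPS minus sham difference in log2 units (horizontal axis) as a large point with its 95% interval from the limma fit, coloured where the adjusted p is under 0.05, and in small grey points the same difference under each of 28 alternative settings. The grey points of miR-30c-1-3p run from -1.46 to -0.26 without reaching 0, and those of miR-30b-5p lie on both sides of 0.

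The 5p and 3p arms of a hairpin were compared as the ratio of 3p to 5p within an array, which does not depend on a scaling factor per array. Of the 5 ratios, 1 fell and 1 rose (40.0%), where 31.7% of 41 pairs of arms on the array changed, 14.6% lower and 17.1% higher in LPS. Groups did not overlap for these 2 ratios, as for 34.1% of the 41 pairs. Levels of different probes are not comparable on an array, so each ratio is given relative to its own sham mean.

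The ratio of miR-30c-1-3p to miR-30c-5p was -0.28, 0.07, -0.02 and 0.23 on the sham arrays and -0.29, -0.60, -0.78 and -0.82 on the LPS arrays, in log2 units from the sham mean. LPS replicate 6 lay just below sham replicate 5, and the other LPS arrays lay well below. The change was -0.62 ± 0.14 (SE), or 1.54-fold lower in LPS (limma, adjusted p = 0.0129 over the 41 pairs). It was -0.01 under normexp, -0.11 with the mean of log values over probes and -0.73 with only the shortest probe, and the call was lost in those 3 of 25 alternatives, with the adjusted p over all 25 from 0.00196 to 0.842. The shortest probe of miR-30c-1-3p was above background on no LPS array. With the scanner software's total signal the change was -1.20, and a fit to the authors' deposited table also gave -1.20. The denominator holds the 5p strands of both miR-30c hairpins.

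The ratio of miR-30b-3p to miR-30b-5p was -0.02, 0.02, -0.09 and 0.09 on the sham arrays and 0.35, 0.21, 0.25 and 0.16 on the LPS arrays, relative to the sham mean. All LPS arrays were above the sham arrays, and the change was 0.24 ± 0.06 (SE), or 1.18-fold higher in LPS (limma, adjusted p = 0.0129). The sign turned to -0.023 under normexp (adjusted p = 0.803), the call was lost in that and 3 other alternatives, and the adjusted p over all 25 ran from 0.000711 to 0.803. The normexp offset of 50 exceeded the signals of the probe of 20 bases of miR-30b-3p, 21.5 to 24.1 in sham and 29.1 to 36.0 in LPS. The part of the offset in that turn was not tested.

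In the other hairpins the arms did not part beyond the threshold. The ratio of miR-30e-3p to miR-30e-5p changed by -0.07 ± 0.07 (SE), with an interval from -0.22 to 0.09 (limma, adjusted p = 0.486), and that of miR-30a-3p to miR-30a-5p by -0.03 ± 0.05 (SE), with an interval from -0.15 to 0.09 (limma, adjusted p = 0.679). Both arms of miR-30e had passed as lower on their own. The ratio of miR-30c-2-3p to miR-30c-5p changed by 0.12 ± 0.04 (SE), with an interval from 0.02 to 0.23 (limma, adjusted p = 0.0574). It passed in 4 of 25 alternatives. These were normexp (0.16), the brightest probe (0.17) and the fits without sham replicate 6 (0.15) or LPS replicate 10 (0.15). Over all 25 the adjusted p ran from 0.0338 to 0.344. The array also holds miR-30d-3p, which was above background on all arrays and changed by 0.07 ± 0.08 (SE) (limma, adjusted p = 0.556). Its ratio to miR-30d-5p changed by 0.21 ± 0.10 (SE) (limma, adjusted p = 0.147). The entry miR-30f was above background on no array.

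**Figure D3:**
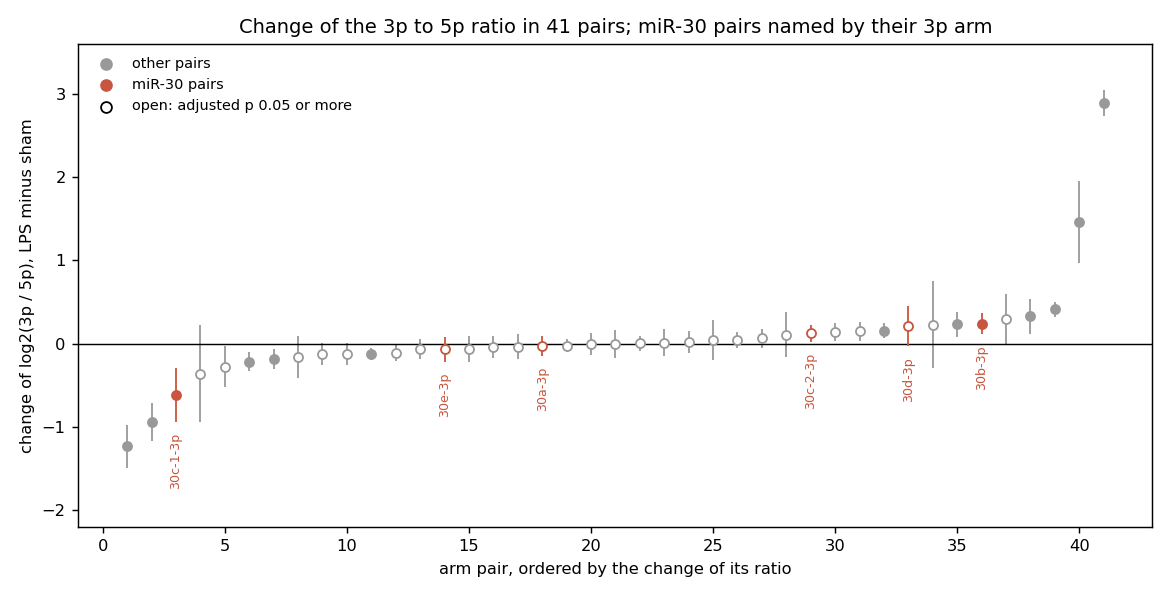
The plot of arm ratios gives the LPS minus sham change of log2(3p over 5p) (vertical axis) with its 95% interval for 41 pairs of arms, ordered by that change (horizontal axis), with the miR-30 pairs in red and named by their 3p arm and filled points where the adjusted p is under 0.05. The miR-30c-1-3p pair is the third from the lowest and the miR-30b-3p pair the sixth from the highest, and the other miR-30 pairs are open.

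Cluster partners, whose hairpins lie near each other on 1 chromosome, were compared as the ratio of the same arm within an array, relative to the sham mean, by 2-sided exact permutation tests over 5 pairs, which with 4 arrays a group cannot give a p under 0.0286. No pair passed after adjustment over the 5 pairs in the main setting. With only 2 pairs separated completely there, no adjusted p could fall under 0.05 whatever the size of the change. The adjusted test therefore cannot decide for these pairs in that setting. With the brightest probe or only the longest probe, 3 pairs separated completely, which puts their adjusted p under 0.05. Both miR-30c hairpins give miR-30c-5p, so its ratios to miR-30a-5p and miR-30e-5p do not isolate 1 cluster. In the a with c-2 cluster, the ratio of miR-30a-5p to miR-30c-5p was -0.04, 0.07, 0.00 and -0.03 on the sham arrays and 0.14, 0.12, 0.17 and 0.16 on the LPS arrays. These groups did not overlap, and the change was 0.15 ± 0.03 (SE) (exact permutation p = 0.0286, adjusted p = 0.0714), though it was -0.01 after quantile normalization. The 3p arms of the same hairpins, miR-30a-3p and miR-30c-2-3p, overlapped throughout, with a change of -0.01 ± 0.05 (SE) (exact permutation p = 0.914, adjusted p = 0.914).

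In the b with d cluster, the ratio of miR-30b-5p to miR-30d-5p was 0.06, -0.08, 0.04 and -0.02 on the sham arrays and 0.19, 0.16, 0.23 and 0.18 on the LPS arrays. Again the groups did not overlap, with a change of 0.19 ± 0.04 (SE) (exact permutation p = 0.0286, adjusted p = 0.0714), which was 0.13 and overlapped when outlier spots were kept. In the c-1 with e cluster the 5p arms overlapped between groups, and the ratio of miR-30c-5p to miR-30e-5p changed by 0.03 ± 0.04 (SE) (exact permutation p = 0.486, adjusted p = 0.607). The ratio of miR-30c-1-3p to miR-30e-3p was -0.25, 0.07, -0.02 and 0.20 on the sham arrays and -0.17, -0.41, -0.73 and -0.78 on the LPS arrays. Sham replicate 5 lay below LPS replicate 6, so the groups overlapped, and the change was -0.52 ± 0.17 (SE) (exact permutation p = 0.0571, adjusted p = 0.0952). Its value was 0.04 under normexp, -0.02 with the mean of log values over probes and -1.11 with the scanner software's total signal.

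**Figure D4:**
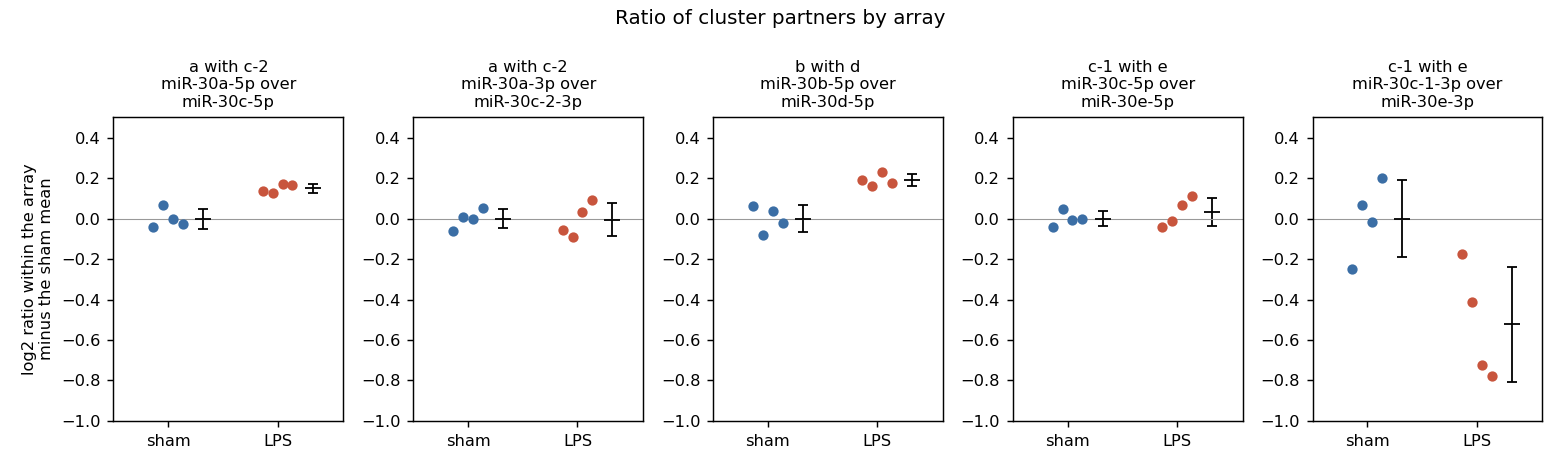
The plot of cluster partners gives the log2 ratio of 2 members of the same arm within each array minus the sham mean (vertical axis, the same in all 5 panels) for 4 sham arrays (blue) and 4 LPS arrays (red), with the mean and 1 SD as black bars. The LPS arrays lie above all sham arrays in the panels of miR-30a-5p over miR-30c-5p and of miR-30b-5p over miR-30d-5p, and groups overlap in the other 3.

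The 2 strands with the largest arm shifts were dim, and the probes behind them are printed because their sum sets the level. The 4 probes of miR-30c-1-3p are complementary to its 3′ end and nested, each a base longer than the last, with the bases beyond the shortest probe in capitals.
miR-30c-1-3p probe of 16 bases: ggagtaaacaaccctc
miR-30c-1-3p probe of 17 bases: ggagtaaacaaccctcT
miR-30c-1-3p probe of 18 bases: ggagtaaacaaccctcTC
miR-30c-1-3p probe of 19 bases: ggagtaaacaaccctcTCC
Only the probe of 19 bases was above background on all 8 arrays. Its background-subtracted signal was 55.7, 63.6, 67.2 and 70.1 on the sham arrays and 40.4, 44.5, 34.3 and 33.2 on the LPS arrays. The groups did not overlap, and the scaled log2 difference was -0.83. The probe of 18 bases was above background on 4 sham arrays and on 0 LPS arrays, with signals of 21.2 to 29.5 against 9.17 to 18.7. Those of 16 and 17 bases were above background on 2 and 0 sham arrays and on no LPS array.

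For miR-30b-3p, the probes of 20 and 21 bases were above background on all 8 arrays, that of 19 bases on 4 LPS arrays and 0 sham arrays, and that of 18 bases on none. The signals of the probe of 20 bases were 21.5 to 24.1 on the sham arrays and 29.1 to 36.0 on the LPS arrays and did not overlap, with a scaled log2 difference of 0.38. Those of the probe of 21 bases were 24.8 to 28.5 and 27.8 to 35.6 and overlapped, with a difference of 0.19.

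**Figure D5:**
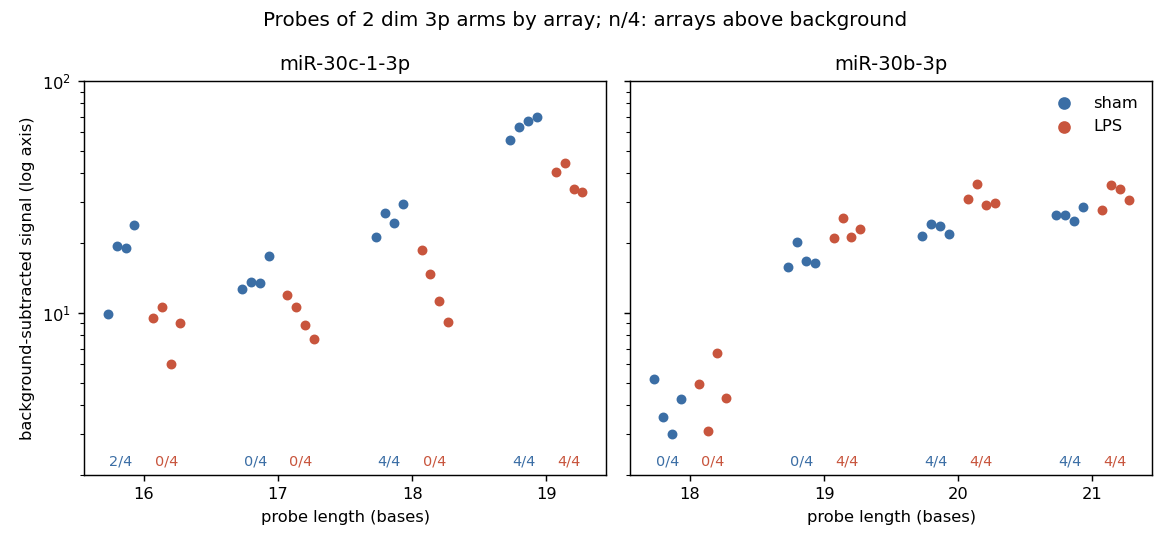
The plot of probes gives the background-subtracted signal (vertical log axis) on each sham (blue) and LPS (red) array for the 4 probes of miR-30c-1-3p and of miR-30b-3p, ordered by probe length in bases (horizontal axis), with the number of arrays of 4 on which the probe was above background printed below. The probe of 19 bases of miR-30c-1-3p is above background on all arrays with the sham arrays between 55.7 and 70.1 and the LPS arrays between 33.2 and 44.5.

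Probes of 1 member differed by their length in the other members too. In 8 of the 9 members with at least 2 probes above background on all arrays, the LPS minus sham difference was lower with the shortest such probe than with the longest, where this held for 154 of 232 miRNAs tested (66.4%). The median gap was -0.10 log2 in the members and -0.02 in all 232. For miR-30e-3p, for example, the difference was -0.43 with the probe of 17 bases and -0.32 with that of 18 bases, and for miR-30c-5p it was -0.34 with 17 and -0.23 with 18 bases. For miR-30c-2-3p it was -0.27 with 18 and -0.07 with 19 bases. The ratio of the shortest to the longest probe did not overlap between groups and was lower in LPS in 7 of the 9 members, and in 17.2% of the 232 miRNAs. Outside the members the same held for 33 of 223, among them let-7c-5p (-0.10), miR-23a-3p (-0.13) and miR-27a-3p (-0.16). In 12 of the 223 it was higher without overlap. This pattern was noticed in the values and is a description with no test.

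Most members moved together from array to array, which is not shown here to be particular to the family. After group means were removed, the Pearson correlation between 2 of the 5p arms over 8 arrays had a median of 0.822 over the 10 pairs and was above 0 in all 10, highest at 0.966 for miR-30a-5p with miR-30d-5p. Whether the probes of miR-30d-5p also bind miR-30a-5p was not checked. Pairs with miR-30c-1-3p stood apart, with a median of -0.05 over 9 pairs, while the 36 pairs without it had a median of 0.759. Of those 36, 35 were above 0, and miR-30a-3p with miR-30e-5p lay at -0.324. LPS replicate 6 was the lowest LPS array in 8 of 10 members and LPS replicate 10 the highest in 7. Sham replicate 8 was the lowest sham array in 7 members and sham replicate 6 the highest in 8. These correlations share the arrays and their scaling factors and are descriptions. Neither they nor the order of the arrays were set against all miRNAs tested. A miRNA outside the family, miR-23b-3p, reached 0.969 with miR-30c-5p.

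The miRNAs outside the family that were most like a changed member, by the same correlation over 8 arrays, differed from member to member. For miR-30c-5p they were miR-23b-3p (0.969), miR-200a-3p (0.958) and miR-19a-3p (0.927), and for miR-30e-5p they were miR-340-5p (0.965), miR-378c (0.951) and miR-361-5p (0.943). For miR-30e-3p they were miR-10b-5p (0.955), miR-10a-5p (0.939) and miR-10a-3p (0.924). For miR-30c-1-3p they were miR-33-5p (0.892), miR-16-5p (0.880) and miR-192-3p (0.878), and for miR-30b-3p they were miR-652-3p (0.927), miR-125b-5p (0.900) and let-7i-5p (0.898). Of these 15, miR-19a-3p passed the test as higher in LPS (0.42 ± 0.09, SE) and miR-192-3p (-0.40 ± 0.07, SE) and miR-361-5p (-0.14 ± 0.05, SE) as lower, by limma with adjusted p of 0.00634, 0.00398 and 0.0431.

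Other miRNAs known from kidney epithelium were counted beside the family, and each count here is to be set against the 25.4% of the 338 miRNAs tested that were lower and the 14.8% that were higher in LPS. Of 9 listed tubule miRNAs 8 were tested, and 6 of these fell and 0 rose, among them miR-192-3p (-0.40 ± 0.07, SE), miR-194-5p (-0.33 ± 0.07, SE) and miR-196b-5p (-0.17 ± 0.05, SE), with limma adjusted p of 0.00398, 0.0107 and 0.0265. The other 2 did not pass and lay above 0, miR-10a-5p at 0.10 and miR-10b-5p at 0.11. The median difference over the 8 was -0.18. The log2 of the summed signals of the 9 listed, in which the brightest weigh most, overlapped between groups. It ran from 5.40 to 5.51 on the sham arrays and from 5.31 to 5.47 on the LPS arrays. Of the 7 miRNAs of the epithelial miR-200 family, 1 fell, which was miR-429-3p at -0.16 ± 0.05 (SE) (limma, adjusted p = 0.0421), and the median was -0.04.

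Some markers of leukocytes, red cells and stroma differed between the groups. Of 6 leukocyte miRNAs all 6 were tested and 2 rose, miR-155-5p by 1.68 ± 0.08 (SE) and miR-223-3p by 0.86 ± 0.09 (SE) (limma, adjusted p = 2.25e-06 and 0.000303). The other 4 did not pass, with differences of 0.26 for miR-142a-3p, 0.13 for miR-142a-5p, -0.22 for miR-150-5p and -0.01 for miR-342-3p. The log2 of the summed signals of the 6 ran from 1.18 to 1.64 on the sham arrays and from 1.79 to 1.89 on the LPS arrays. Of 4 red cell miRNAs 2 were tested and both rose, miR-451a by 2.43 ± 0.71 (SE) and miR-144-3p by 2.46 ± 0.68 (SE) (limma, adjusted p = 0.0285 and 0.0235). The log2 of the summed signals of all 4 ran from -0.77 to 1.67 in sham and from 1.06 to 3.80 in LPS. The groups thus overlapped, and of the untested pair miR-144-5p was above background on 0 arrays and miR-486a-5p on 2. Of 6 miRNAs of smooth muscle and stroma 3 fell, with such log2 sums at 2.95 to 3.13 in sham and 2.97 to 3.16 in LPS. Of 2 endothelial miRNAs 0 passed, with log2 sums of 4.13 to 4.23 and 4.10 to 4.27. The part of these cell types in the miR-30 differences was not tested.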

How the data were processed

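The deposited files hold the scanner software's output for 8 arrays. Per the file headers, each spot's intensity was background-subtracted and spatially detrended but not put on a common scale across arrays. Agilent Feature Extraction 12.0.3.1 is the software named in the submitters' processing notes. The authors also deposited a table with 1 linear ratio per miRNA and array. Over 383 miRNAs, 100.0% of these ratios equalled the scanner's total signal to 0.01 log2 once an array factor and a miRNA factor were allowed for. Its scale is therefore linear, with the origin of its array factors unknown. Since a factor per miRNA was allowed for, the check cannot show how each miRNA was centred. Its column medians were 0.995, 1.06, 1.05 and 0.980 (sham) and 0.958, 0.960, 1.01 and 1.03 (LPS), and it served as an alternative only.

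Outlier spots were dropped, the other spots averaged for each of 4415 probes, and every array scaled by the 75th percentile of the 551 probes found above background throughout. Probes were summed per miRNA, floored at -4.68 (log2, 0.851% of tested values) and log2-transformed. Above background means that, for at least 1 probe, more than 50% of spots were so flagged. Tested were the 338 miRNAs above background in a whole group, by lmFit and eBayes of limma 3.58.1 (R 4.3.3; 2-sided, without covariates), Benjamini-Hochberg adjustment over all 338 and a threshold of 0.05. Arm ratios were fitted likewise over 41 pairs, and cluster ratios were compared by exact permutation (SciPy 1.17.1). The limma steps were tested on simulated data. All 10 members are named, with the 3 miRNAs most like each changed member and at most 3 passing miRNAs per list by p. Also named are miR-30d-3p, miR-30f, the liver marker, and the tubule, leukocyte and red cell miRNAs given as not passing or not tested. The number of arrays limits the precision. The members and lists were chosen with earlier results of these data known. Alternatives covered scaling, background, probe summary, filter, floor, outlier spots, variance model, slide column, the deposited table and leaving out each array.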

Additional observations from a re-analysis of the deposited data

Results flagged for a closer look

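The level of miR-30d-5p on sham replicate 6 was 1.67 on the log2 scale, while the other 3 sham arrays lay between 1.38 and 1.41. Its gap to the nearest of them, relative to the range of the group, exceeded Dixon's 95% critical value for 4 samples. Without this array the LPS minus sham difference of miR-30d-5p was -0.080 in place of -0.15. Chance does this in about 1 in 20 groups, and it occurred in 1 of 42 groups of 4 arrays examined for the members, their arm ratios and their cluster ratios, where 2.10 would be met by chance.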

How the results depend on the processing

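Of the 5 calls among members, those of miR-30c-1-3p and miR-30e-3p held under all 28 alternatives, that of miR-30e-5p under 27, of miR-30c-5p under 25 and of miR-30b-3p under 23. For miR-30c-1-3p, 1 of these alternatives rests on its shortest probe, which was above background on no LPS array. All 5 held when any 1 array was left out, with 5 to 6 members passing. The number passing was 3 without scaling, 8 under spike-in scaling, and 7 both after quantile normalization and with only the shortest probe. Of the arm ratios, 2 passed, against 1 under normexp, 1 with the mean of log values and 1 with only the longest probe. With only the shortest 0 passed, and without 1 array 2 to 3 did. Both main calls were lost under normexp, where the ratio that passed was miR-30c-2-3p to miR-30c-5p (0.16). With the brightest probe 2 passed, but that ratio stood in place of miR-30b-3p to miR-30b-5p. The ratio of miR-30b-3p to miR-30b-5p reversed to -0.023 under normexp, whose offset of 50 exceeded the probe signals of miR-30b-3p. The number of cluster ratios without overlap was 2, against 1 after quantile normalization and 1 with outlier spots kept. It was 3 with the brightest or only the longest probe, where the adjusted p of all 3 is under 0.05. Without 1 array it was 2 to 3. The third was miR-30c-1-3p over miR-30e-3p in each case (without sham replicate 5 or LPS replicate 6). The causes of these changes were not tested. With slide column as a block, all 5 members passed, and of all miRNAs 35 were higher and 45 lower. The settings with only the longest, only the shortest or only the probes above background were chosen after seeing the data. Fits without any filter were not run, since most miRNAs then sit at the floor. The exact permutation test of single members cannot pass after adjustment over 338, and the 5 called members and 2 called ratios reached its smallest p, 0.0286. Variance models and the slide column do not apply to the permutation test of cluster ratios. No paired analysis was possible because the groups share only replicate number 6, so arrays were blocked by slide column alone, as above. Dim 3p arms, with few probes above background, are measured least surely.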
